A study of Mus musculus with 69 samples.

Results

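Icam1, Vcam1, Sele and Selp encode the adhesion molecules with which activated blood vessel endothelium catches white blood cells, and their transcripts were followed in mouse hearts after inhaled or injected cyanide. Members were taken as every probe set annotated to 1 of these symbols alone, which gave 5 probe sets of 45141 on the array and 4 genes of the 17097 with a symbol of their own. Icam1 was read by 1424067_PM_at, Vcam1 by 1451314_PM_a_at and Sele by 1421712_PM_at. Selp had 2 probe sets, 1420558_PM_at, which had the higher mean and stands for the gene below, and 1449906_PM_at, called its second probe set. In the RefSeq annotation of GRCm38.p6, Sele (chr1:164039614-164058487) and Selp (chr1:164115264-164150026) lie close together on chromosome 1, Vcam1 lies at chr3:116110020-116129688 and Icam1 at chr9:21015940-21028814.

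Leukocytes leave the blood in steps. Selectins on the vessel wall bind carbohydrate ligands on leukocytes and let them roll, and immunoglobulin-type molecules then bind leukocyte integrins and hold the cells fast. P-selectin, the product of Selp, is stored in the Weibel-Palade bodies of endothelium and the alpha granules of platelets, and in mice its gene is also transcribed on cytokine stimulation. E-selectin, the product of Sele, is made by most endothelium only after such a stimulus. The product of Icam1 binds the integrins that contain Itgb2, and that of Vcam1 binds the pair of Itga4 and Itgb1. NF-kB carries the signal of inflammatory cytokines to these genes. Quiescent heart endothelium holds some of the Icam1 and Vcam1 products and little E-selectin.

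All mice were adult males of the outbred CD-1 strain, not anaesthetised, and each array was treated as the heart of a separate mouse, as the labels number biological replicates. Inhalation groups breathed hydrogen cyanide (HCN) at 327 ppm through the nose alone, against air, and hearts were taken at 1, 2, 4 and 24 h. Injection groups received potassium cyanide (KCN) at 8.0 mg/kg under the skin, against saline of matched volume, and hearts were taken at 1, 2, 4, 8 and 24 h. There were 69 arrays in 18 groups of 4, except that KCN 4 h, saline 2 h and saline 4 h held 3 each. Values are log2 signals, so that a difference of 1 is a 2-fold change, and "rose" or "fell" is used only where limma gave an adjusted p below 0.05 (Benjamini-Hochberg over the 26773 probe sets tested). How the arms were normalized is not stated and their upper signals differed (median 95th percentiles of 9.24 for injection and 9.52 for inhalation), so levels are compared only within an arm, and the number of arrays limits the precision.

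The whole-heart RNA carried the defining markers of the muscle and its vessels. Cardiomyocyte markers averaged 12.83 to 12.89 on the HCN 4 h arrays and 12.82 to 12.87 on the air 4 h arrays, and all 10 endothelial markers were above the signal filter there. Some hearts also held transcripts of airway epithelium. Over arrays, Scgb1a1, the main secretory protein of airway club cells, had signals of 2.75 to 12.77 in HCN 4 h hearts and 9.76 to 12.85 in air 4 h hearts. RNA quality was uneven in the inhalation arm at 2 and 24 h. The actin ratio is the log2 signal of the control probe set at the 3' end of actin minus that at its 5' end. At 2 h it was 1.22 ± 0.61 in HCN hearts and 0.45 ± 0.14 in air hearts (SD, n = 4 each). At 4 h it was 0.41 ± 0.04 in HCN hearts and 0.40 ± 0.04 in air hearts, and at 24 h 0.98 ± 0.25 and 0.39 ± 0.04.

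At 4 h after HCN all 4 adhesion molecules stood above air. Selp rose by 1.10 ± 0.19 (SE), Icam1 by 0.86 ± 0.20, Vcam1 by 0.78 ± 0.15 and Sele by 0.42 ± 0.13, while 2.87% of all probe sets tested rose in this comparison (7.35% were called in either direction). In none of the 4 did the HCN hearts overlap the air hearts, as was so with HCN higher for 5.09% of all probe sets. Sele entered the test only because its mean in these same HCN hearts passed the filter, so its part in the count is no support for it. In bulk tissue more cells of a type and more RNA per cell cannot be told apart.

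Selp, whose product starts leukocyte rolling, had signals of 5.20, 5.99, 5.19 and 4.84 in the HCN 4 h hearts, against 4.51, 4.23, 3.86 and 4.23 in the air 4 h hearts. The lowest HCN heart lay above the highest air heart. The means were 5.31 ± 0.48 with HCN and 4.21 ± 0.27 in air (SD, n = 4 each), a 2.14-fold difference with an adjusted p of 5.82e-05 in limma. The second probe set of Selp read 4.27, 4.83, 3.32 and 3.27 in the HCN hearts and 3.61, 3.19, 2.77 and 3.16 in the air hearts. There, only replicates 1 and 2 of HCN lay above every air heart. This probe set passed the filter only through cyanide groups, with means of 3.92 at HCN 4 h, 3.25 at HCN 2 h and 3.26 at KCN 4 h. The highest mean of a control group was 3.18, in air 4 h hearts, so the call of this probe set is no separate support. Its rise was 0.74 ± 0.19 (limma adjusted p = 0.00728), and it was 0.44 (adjusted p = 0.128) without HCN 4 h replicate 2, 0.62 (adjusted p = 0.0507) without HCN 4 h replicate 1 and 0.60 (adjusted p = 0.0576) without air 4 h replicate 3.

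Icam1, the ligand of the Itgb2 integrins, had signals of 6.94, 7.34, 6.40 and 6.84 in the HCN 4 h hearts and 6.03, 6.31, 5.85 and 5.88 in the air 4 h hearts. The groups were separate by a narrow margin, the third HCN heart lying just above the second air heart. The means were 6.88 ± 0.39 with HCN and 6.02 ± 0.21 in air (SD, n = 4 each), a 1.81-fold difference with a limma adjusted p of 0.00407. Vcam1, the ligand of Itga4 and Itgb1, had signals of 6.03, 6.42, 6.18 and 6.09 in the HCN 4 h hearts, against 5.22, 5.65, 5.39 and 5.34 in the air 4 h hearts. All HCN hearts were above all air hearts, with means of 6.18 ± 0.17 and 5.40 ± 0.18 (SD, n = 4 each), a 1.72-fold difference with a limma adjusted p of 0.000321.

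Sele, the cytokine-induced selectin, was dim on every array of the study. Its signals were 3.10, 3.58, 3.26 and 3.14 in the HCN 4 h hearts and 2.67, 2.89, 2.99 and 2.85 in the air 4 h hearts. The HCN hearts lay just above the air hearts, and HCN 4 h was the only group of the 18 whose mean, 3.27 ± 0.22 (SD, n = 4), passed the filter at 3.23. The limma adjusted p was 0.0377. The call was lost without HCN 4 h replicate 2 (change 0.32, adjusted p = 0.185), HCN 4 h replicate 3 (0.42, adjusted p = 0.0746), and air 4 h replicates 1 (0.36, adjusted p = 0.136), 2 (0.44, adjusted p = 0.0643) and 4 (0.42, adjusted p = 0.0687). HCN 4 h replicate 2 had the highest signal of its group on all 5 probe sets. Without it, limma gave rises of 0.87 for Selp (adjusted p = 0.00175), 0.71 for Icam1 (adjusted p = 0.0327) and 0.70 for Vcam1 (adjusted p = 0.00324).

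**Figure D1:**
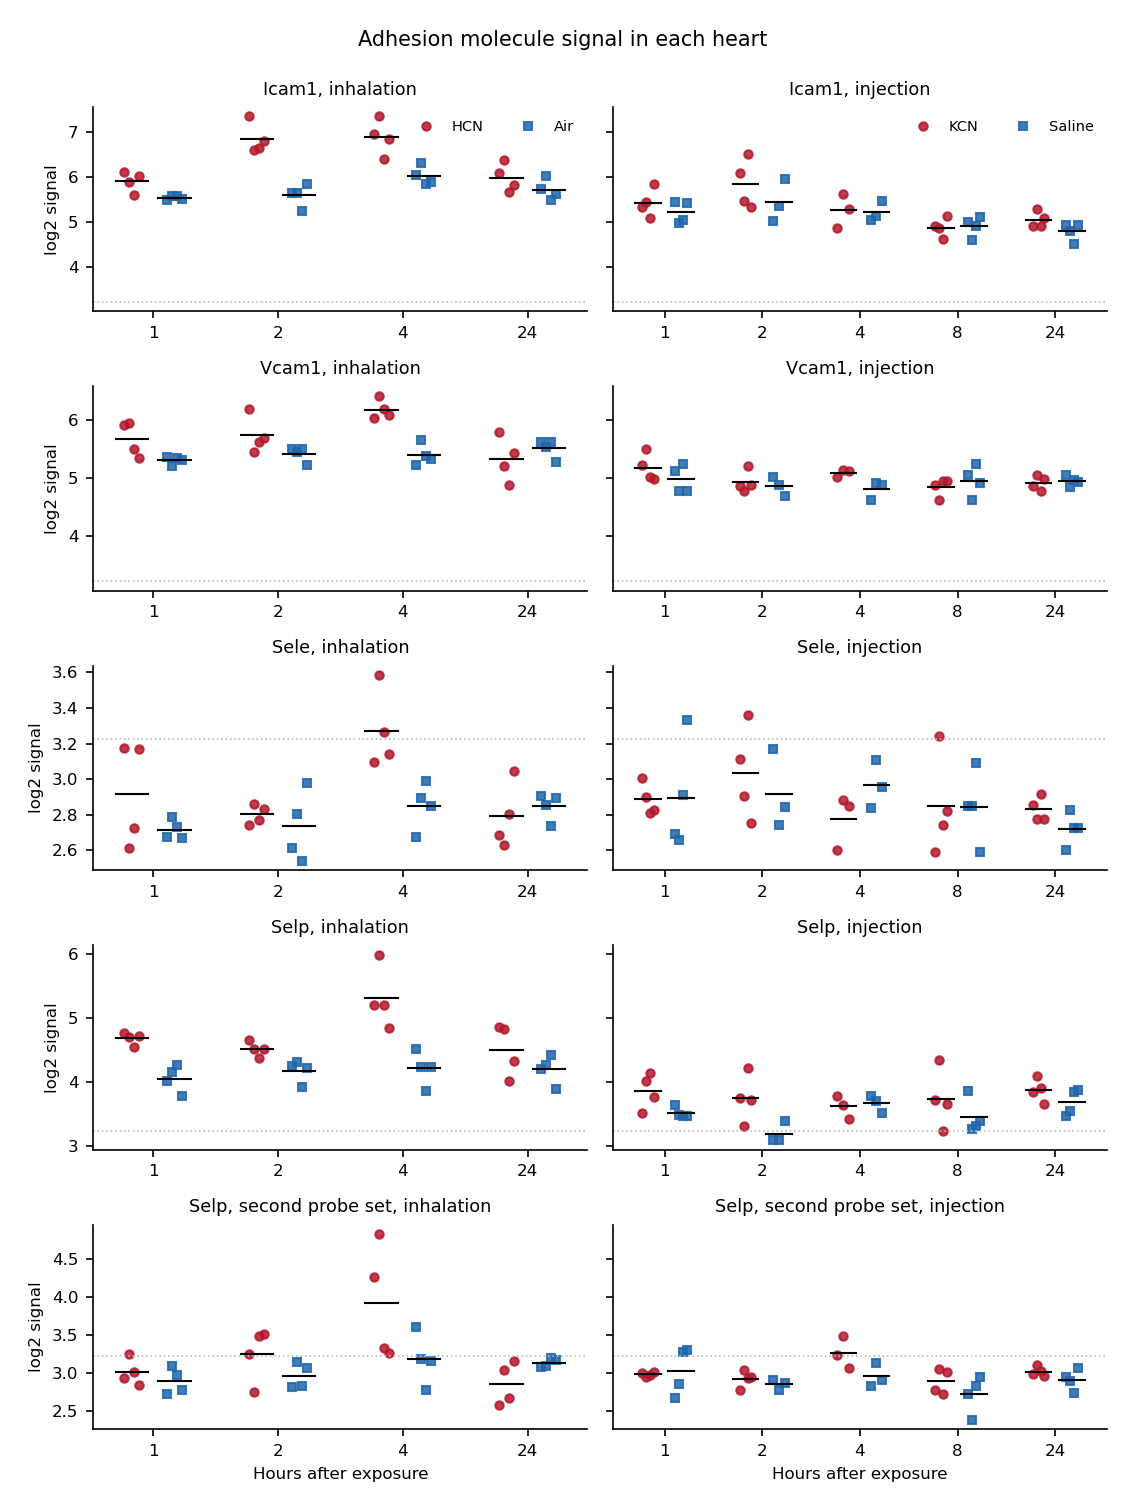
Each point is the log2 signal of 1 heart, with HCN (red circles) beside air (blue squares) on the left and KCN (red circles) beside saline (blue squares) on the right, by hours after exposure. Black bars are group means, and the dotted line is the filter at 3.23. HCN hearts lay above air hearts without overlap for all 4 genes at 4 h, for Icam1 and Selp at 1 and 2 h, and for no gene at 24 h, and Sele stayed near or below the filter everywhere. Vertical axes differ between genes and do not start at 0.

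The 3 members with an entry in the RefSeq promoter table (GRCm38.p6) are shown here, and Vcam1 is named only. They are known NF-kB targets and were called at 4 h after HCN, Icam1 also at 2 h. Whether they share a regulator in these hearts was not tested. Each window runs over 250 bases before and 50 bases after the table's transcription start on the plus strand, Icam1 at chr9:21015690-21015989, Sele at chr1:164047984-164048283 and Selp at chr1:164115014-164115313. The start used for Sele lies inside its annotated locus. Capitals mark matches, on either strand, to GGNNNTTCC (a core of the NF-kB site), TTCNNNGAA (the STAT site), TGANTCA (the AP-1 site) or TATAAA (the TATA box).
Icam1: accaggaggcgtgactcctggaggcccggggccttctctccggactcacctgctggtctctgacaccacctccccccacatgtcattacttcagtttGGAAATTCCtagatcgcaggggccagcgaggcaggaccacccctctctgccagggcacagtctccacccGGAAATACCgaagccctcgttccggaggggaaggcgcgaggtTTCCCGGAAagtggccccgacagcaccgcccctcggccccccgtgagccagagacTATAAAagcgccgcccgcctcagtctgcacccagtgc
Sele: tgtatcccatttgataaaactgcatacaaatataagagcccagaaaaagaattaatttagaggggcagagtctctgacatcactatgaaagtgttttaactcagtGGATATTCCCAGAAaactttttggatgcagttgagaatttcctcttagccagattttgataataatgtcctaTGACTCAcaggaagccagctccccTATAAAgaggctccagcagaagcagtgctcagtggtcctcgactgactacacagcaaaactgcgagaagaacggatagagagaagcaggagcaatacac
Selp: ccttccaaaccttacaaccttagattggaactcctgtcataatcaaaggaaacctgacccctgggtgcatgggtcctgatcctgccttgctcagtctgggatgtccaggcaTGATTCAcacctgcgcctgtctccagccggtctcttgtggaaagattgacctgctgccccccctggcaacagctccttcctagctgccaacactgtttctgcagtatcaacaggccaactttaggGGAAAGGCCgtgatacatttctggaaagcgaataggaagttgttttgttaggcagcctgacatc
Counting from the start as +1, Icam1 held GGAAATTCC at -153 to -145, GGAAATACC at -84 to -76, a match on the minus strand, TTCCCGGAA at -42 to -34 and TATAAA at +14 to +19. Sele held GGATATTCC at -145 to -137, which overlaps TTCCCAGAA at -140 to -132, then TGACTCA at -73 to -67 and TATAAA at -49 to -44. Selp held TGATTCA at -139 to -133 and GGAAAGGCC at -14 to -6, a match on the minus strand. Of the 32851 promoters of the table, all 300 bases long, 18.5% held GGNNNTTCC, 8.3% TTCNNNGAA, 7.81% TGANTCA and 13.6% TATAAA. A match of letters is a description and not a bound site.

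At 2 h after HCN, Icam1 alone of the 4 rose, and its change was at its highest. Its signals were 7.34, 6.60, 6.63 and 6.78 in the HCN hearts, against 5.65, 5.64, 5.24 and 5.85 in the air hearts. Every HCN heart was above every air heart by a wide margin. The means were 6.84 ± 0.34 with HCN and 5.59 ± 0.26 in air (SD, n = 4 each), a change of 1.24 ± 0.20 (SE) or 2.37-fold, with a limma adjusted p of 8.17e-06. In this comparison 8.79% of all probe sets rose and 25.3% were called in either direction. The actin ratio differed between these groups, as given above, and its part in the result was not tested beyond these values. The rise was 1.34 with the actin ratio as a covariate (limma adjusted p = 0.000432) and 1.11 without the pair of HCN 2 h hearts of highest ratio, 1.95 and 1.49 (adjusted p = 0.00177).

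The other members moved less at 2 h. Vcam1 had signals of 6.19, 5.44, 5.62 and 5.70 in the HCN hearts and 5.50, 5.45, 5.51 and 5.22 in the air hearts. The groups overlapped, with replicate 1 of HCN the highest, and the difference was 0.32 ± 0.15 (limma adjusted p = 0.12). Selp had signals of 4.66, 4.52, 4.37 and 4.51 in the HCN hearts and 4.25, 4.30, 3.91 and 4.21 in the air hearts. These groups did not overlap, as was so for 7.23% of all probe sets, but lay close, with a difference of 0.34 ± 0.19 (limma adjusted p = 0.188). Sele averaged 2.80 ± 0.06 in HCN hearts and 2.74 ± 0.20 in air hearts (SD, n = 4 each), both below the filter.

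At 1 h after HCN limma called 0 of the 4 members, where 1.38% of all probe sets rose and 2.68% were called, and 2 of the 4 had an unadjusted p under 0.05. Selp came nearest. Its signals were 4.77, 4.70, 4.55 and 4.72 in the HCN hearts and 4.02, 4.15, 4.26 and 3.77 in the air hearts. The groups did not overlap, and the difference of 0.63 ± 0.19 (SE) had a limma adjusted p of 0.0544. Icam1 had signals of 6.11, 5.88, 5.60 and 6.03 in the HCN hearts, against 5.49, 5.57, 5.58 and 5.51 in the air hearts, which lay close together. These groups did not overlap either, with a difference of 0.37 ± 0.20 (limma adjusted p = 0.409), and a lack of overlap with HCN higher was found for 4.14% of all probe sets. Vcam1 had signals of 5.91, 5.95, 5.50 and 5.35 in the HCN hearts and 5.37, 5.21, 5.35 and 5.32 in the air hearts, so that its lowest HCN heart fell among the air hearts. Its difference was 0.37 ± 0.15 (limma adjusted p = 0.218), and that of Sele was 0.20 ± 0.13 (adjusted p = 0.510).

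By 24 h after HCN the groups overlapped for every member, limma called 0 of the 4, and 0 had an unadjusted p under 0.05, while 5.08% of all probe sets rose and 14.3% were called. Icam1 had signals of 6.09, 6.36, 5.65 and 5.83 in the HCN hearts and 5.73, 6.02, 5.49 and 5.61 in the air hearts, a difference of 0.27 ± 0.20 (SE). Vcam1 had signals of 5.79, 5.21, 4.88 and 5.43 in the HCN hearts and 5.63, 5.54, 5.63 and 5.29 in the air hearts, a difference of -0.19 ± 0.15. Selp divided the HCN hearts into a pair at 4.85 and 4.83 and a pair at 4.01 and 4.32, against 4.20, 4.26, 4.42 and 3.89 in the air hearts, a difference of 0.31 ± 0.19. The difference of Sele was -0.05 ± 0.13. The 95% confidence intervals reached up to 0.68 for Icam1, 0.69 for Selp, 0.11 for Vcam1 and 0.21 for Sele. The actin ratio was raised in these HCN hearts (0.98 ± 0.25, against 0.39 ± 0.04 in air hearts, SD). With it as a covariate limma also called 0 of the 4.

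The highest HCN effect was at 2 h for Icam1 and at 4 h for the other members, and differences in timing between members were not tested. The moderated F test in limma asked whether the HCN effect on a gene changed over 1, 2, 4 and 24 h. It called Vcam1 (adjusted p = 0.00422) and Icam1 (adjusted p = 0.0223), while Selp had an adjusted p of 0.0574 and Sele of 0.175, and 27.3% of all probe sets were called. The Icam1 call was lost without HCN 2 h replicate 1 (adjusted p = 0.0694), without air 2 h replicate 3 (adjusted p = 0.0613) and without both HCN 2 h hearts of highest actin ratio (adjusted p = 0.084). The Selp call was gained without any 1 of 6 hearts, with an adjusted p as low as 0.0198 without HCN 4 h replicate 4. Contrasts of neighbouring times were added after the data were seen.

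The HCN effect on Icam1 was larger at 2 h than at 1 h by 0.87 ± 0.29 (SE, limma adjusted p = 0.0336), where 5.13% of all probe sets had a higher and 13.9% a different effect. Between 2 and 4 h its effect differed by -0.38 ± 0.29 (adjusted p = 0.498). The effects on Vcam1 and Selp were smaller at 24 h than at 4 h, by -0.98 ± 0.21 (limma adjusted p = 0.00156) for Vcam1 and -0.79 ± 0.27 (adjusted p = 0.0441) for Selp, where 11.4% of all probe sets differed. The actin ratio was raised in HCN hearts at 24 h and not at 4 h, and its part in these differences was not tested. Between 4 and 2 h, where 5.23% differed, limma called 0 of the 4 and 2 had an unadjusted p under 0.05. Selp had a difference of 0.76 ± 0.27 (adjusted p = 0.0854) and Vcam1 of 0.47 ± 0.21 (adjusted p = 0.209). The controls gave no called change over time. In air the adjusted p from the limma F test was 0.234 for Icam1, 0.721 for Vcam1, 0.745 for Sele and 0.893 for Selp, and 16.7% of all probe sets were called.

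**Figure D2:**
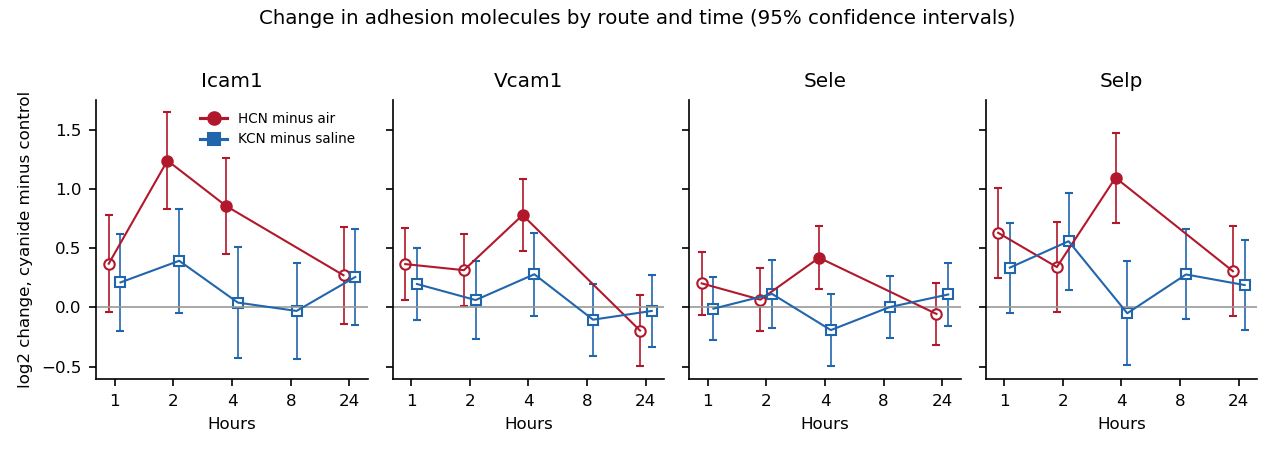
The log2 change of each gene, HCN minus air (red circles) and KCN minus saline (blue squares), with 95% confidence intervals from limma, by hours after exposure (times evenly spaced, not to scale). Filled symbols passed an adjusted p of 0.05. Icam1 was filled at 2 h (1.24) and 4 h (0.86) after HCN, the other 3 genes at 4 h after HCN, and no symbol after KCN.

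Averaged over its 4 times, HCN raised Icam1 by 0.69 ± 0.10 (SE, limma adjusted p = 1.24e-06), Selp by 0.60 ± 0.10 (adjusted p = 4.80e-06) and Vcam1 by 0.32 ± 0.08 (adjusted p = 0.00146). Sele had an average of 0.16 ± 0.07 (adjusted p = 0.0772). In the averages 7.39% of all probe sets were higher and 21.5% were called. Within the inhalation arm the highest levels of Icam1 were in HCN 4 h hearts (6.88) and HCN 2 h hearts (6.84), which did not differ beyond their SDs, and the next group, air 4 h, lay 0.82 lower. Vcam1 and Sele were highest in HCN 4 h hearts, by 0.45 and 0.35 over the next group, more than either group's SD. Selp had its highest mean in HCN 4 h hearts (5.31), followed by HCN 1 h (4.68), HCN 2 h (4.51) and HCN 24 h (4.50), and all 4 air groups lay below, at 4.05 to 4.21. The gaps below HCN 4 h and HCN 1 h exceeded either group's SD, while HCN 2 h and HCN 24 h, and HCN 24 h and air 4 h, did not differ beyond theirs.

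After KCN injection limma called no member at any of the 5 times. An airway transcript and the actin ratio stood apart in some KCN groups. Scgb1a1 had signals of 10.99 to 11.99 in KCN 1 h hearts and 2.54 to 3.08 in saline 1 h hearts, and of 9.69 to 12.07 in KCN 4 h hearts and 2.88 to 3.22 in saline 4 h hearts. The actin ratio averaged 0.48, 0.59 and 0.47 in KCN hearts at 1, 4 and 24 h, against 0.84, 0.86 and 0.88 in the saline hearts of those times. Of all probe sets, KCN changed 4.09% at 1 h, 6.59% at 2 h and 2.26% at 4 h. The later KCN hearts had 0.336% changed at 8 h and 11.9% at 24 h. Of the 4 members, 1 had an unadjusted p under 0.05 at 2 h and 0 at the other times. That was Selp, with signals of 3.74, 3.31, 4.22 and 3.71 in the KCN 2 h hearts, against 3.08, 3.09 and 3.38 in the saline 2 h hearts. All but 1 KCN heart lay above the saline hearts, and the difference was 0.56 ± 0.21 (SE, limma adjusted p = 0.0895). Without KCN 2 h replicate 2, the heart that overlapped, it was 0.70 (adjusted p = 0.0347), and with the level of endothelial markers as a covariate 0.72 (adjusted p = 0.0302). Platelet markers, which share Selp, moved the other way there: 7 of 8 fell and 0 rose, and their list mean was 4.33 to 4.94 in KCN hearts and 5.39 to 6.64 in saline hearts. With their level as a covariate the Selp difference was 0.57 (adjusted p = 0.206), and their part in it was not tested further. The saline 2 h hearts also stood apart in the signal of the 18S ribosomal control, which was 12.89 ± 0.06 in KCN 2 h hearts (SD, n = 4) and 11.55 ± 0.33 in saline 2 h hearts (SD, n = 3), against means of 12.86 to 13.15 in the other groups. Its part in the KCN 2 h differences was not tested.

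Icam1 varied widely from heart to heart at 2 h after KCN. Its signals were 6.09, 5.45, 6.49 and 5.33 in the KCN hearts, against 5.02, 5.36 and 5.96 in the saline hearts. Replicates 1 and 3 of KCN were the highest of the injection arm, and the other pair lay among the saline hearts, so that the difference of 0.40 ± 0.22 (SE) had a limma adjusted p of 0.315. At 1, 4, 8 and 24 h the differences of Icam1 were 0.21 ± 0.20, 0.04 ± 0.24, -0.03 ± 0.20 and 0.26 ± 0.20. With airway transcripts as a covariate the 1 h value was 0.44 (limma adjusted p = 0.293). The 95% confidence intervals of Icam1 over the 5 times reached as high as 0.84, at 2 h. Its saline level had an adjusted p of 0.0668 over time in the limma F test, where 38.3% of all probe sets were called, and 0.0260 without saline 2 h replicate 1.

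Vcam1 differed between KCN and saline hearts by -0.10 to 0.28 over the 5 times. At 4 h its signals were 5.02, 5.14 and 5.12 in the KCN hearts and 4.62, 4.92 and 4.89 in the saline hearts. These groups of 3 did not overlap, as was so with KCN higher for 10.3% of all probe sets, and the difference of 0.28 ± 0.18 (SE) had a limma adjusted p of 0.434. Sele differed by -0.19 to 0.11 and its group means stayed below the filter in all 10 injection groups, with the highest signal of 3.36 in a KCN 2 h heart. Selp at 1 h read 3.51, 4.01, 4.13 and 3.75 in the KCN hearts and 3.64, 3.49, 3.46 and 3.47 in the saline hearts, a difference of 0.34 ± 0.19 (adjusted p = 0.351). Its differences at 4, 8 and 24 h were -0.05 ± 0.22, 0.28 ± 0.19 and 0.19 ± 0.19. The second probe set of Selp had differences of -0.05 to 0.30 after KCN, none of them called.

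Averaged over the 5 times after KCN, Selp was higher by 0.26 ± 0.09 (SE, limma adjusted p = 0.0483), where 5.07% of all probe sets were higher and 9.51% were called. This call was lost without any 1 of 26 of the 37 injection arrays, where the adjusted p reached 0.0931 without KCN 8 h replicate 2. Of 6 airway markers, 4 were also higher in the KCN average. With airway transcripts as a covariate the Selp average was 0.27 (adjusted p = 0.139), and with the actin ratio it was 0.29 (adjusted p = 0.0626). The averages of the other members were 0.18 ± 0.10 for Icam1 (adjusted p = 0.255), 0.08 ± 0.07 for Vcam1 (adjusted p = 0.515) and 0.01 ± 0.06 for Sele (adjusted p = 0.971). The KCN effect did not pass the F test over time for any member (limma adjusted p = 0.541 for Selp, the lowest), while 16.4% of all probe sets did, and 0 of the 4 had an unadjusted p under 0.05. Within the injection arm, no gap between neighbouring group means exceeded the larger SD for any of the 5 probe sets.

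The effect of HCN was set directly against that of KCN at the 4 shared times, which asks whether the routes differed in what they did to the same gene. The agents, doses and routes differ together, so these cannot be told apart. At 4 h the HCN effect on Selp exceeded the KCN effect by 1.15 ± 0.29 (SE, limma adjusted p = 0.0266), with a 95% confidence interval of 0.57 to 1.73. In this contrast 0.646% of all probe sets had a higher and 1.87% a different effect. All 4 members had an unadjusted p under 0.05 there, with differences of 0.82 ± 0.31 for Icam1 (adjusted p = 0.155), 0.50 ± 0.23 for Vcam1 (adjusted p = 0.259) and 0.61 ± 0.20 for Sele (adjusted p = 0.0925). Sele was tested only because its mean in these HCN hearts passed the filter, so its part in this count is no support. The share of all probe sets at such an unadjusted p was not counted. The second probe set of Selp gave 0.44 ± 0.29 (adjusted p = 0.469). Scgb1a1 lay higher in KCN 4 h hearts than in saline 4 h hearts without overlap, and with airway transcripts as a covariate the Selp difference was 1.13 and no longer passed (adjusted p = 0.0737).

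The Selp call at 4 h was lost without HCN 4 h replicate 2 (0.92, adjusted p = 0.0713), air 4 h replicate 3 (1.03, adjusted p = 0.0548), KCN 4 h replicates 1 (1.23, adjusted p = 0.0508) or 3 (1.05, adjusted p = 0.0693), and saline 4 h replicates 1 (1.09, adjusted p = 0.0597) or 2 (1.13, adjusted p = 0.0678). At 2 h Icam1 had a difference of 0.85 ± 0.30 (SE, limma adjusted p = 0.0812), where 5.73% of all probe sets were called, and it was the 1 member with an unadjusted p under 0.05. Without saline 2 h replicate 1 this difference was 1.06 (adjusted p = 0.0359), and without KCN 2 h replicate 3 it was 1.07 (adjusted p = 0.0246). At 1 h, where 0.198% of all probe sets were called, and at 24 h, where 18.8% were, limma called 0 of the 4 and 0 had an unadjusted p under 0.05. The 95% confidence intervals at 1 h were -0.42 to 0.74 for Icam1 and -0.24 to 0.83 for Selp, so differences between these bounds are not excluded.

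Genes around the adhesion molecules were read from lists chosen by known role. Of 15 listed cytokines and receptors that induce adhesion molecules, 9 were bright enough to be tested; the cytokines Tnf, Lta, Il1a, Il4, Il13 and Ifng were not. At 4 h after HCN 5 of the 9 rose and 0 fell, with a median change of 0.47, against -0.03 over all probe sets. Of all probe sets, 2.87% rose at 4 h and 8.79% at 2 h. Il1r1, the signalling receptor for the product of Il1b, rose by 1.13 ± 0.19 (SE, limma adjusted p = 4.56e-05), with means of 7.27 in HCN hearts and 6.13 in air hearts. F2r, a thrombin receptor, rose by 0.77 ± 0.15 (adjusted p = 0.00021) and Tnfrsf1a, the main receptor of tumour necrosis factor, by 0.65 ± 0.12 (adjusted p = 0.000143). Il4ra rose by 0.88 ± 0.17 (adjusted p = 0.000289) and Ifngr1 by 0.47 ± 0.12 (adjusted p = 0.00945). At 2 h 3 of the 9 rose and 0 fell, F2r by 0.76 ± 0.15 (adjusted p = 8.61e-05), Il1r1 by 0.62 ± 0.19 (adjusted p = 0.0127) and the cytokine Il1b itself by 0.61 ± 0.17 (adjusted p = 0.00506), with a median of 0.18 over the list and -0.04 over all probe sets.

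Of 12 measured transcription regulators of these promoters, 4 rose at 1 h after HCN, where 1.38% of all probe sets rose and 2.68% were called. No member was called there, though Selp differed by 0.63 (limma adjusted p = 0.0544). The order of regulators and members was not tested. The median change of the regulators was 0.13, against -0.01 over all probe sets. Nfkbia, which holds NF-kB in the cytoplasm and is itself an NF-kB target, rose by 1.27 ± 0.15 (SE, limma adjusted p = 7.37e-09), and Jun, a subunit of AP-1, by 2.10 ± 0.22 (adjusted p = 2.60e-10). Klf2 and Klf4, which in cultured human endothelium restrain the induction of adhesion molecules, rose by 1.57 ± 0.28 (adjusted p = 0.000134) and 1.12 ± 0.24 (adjusted p = 0.00199). At 2 h 3 of the 12 rose and 2 fell, with a median of 0.10, where 8.79% of all probe sets rose and 25.3% were called. Nfkbia had risen by 1.31 ± 0.15 (adjusted p = 4.31e-09) and Gata2 by 0.54 ± 0.15 (adjusted p = 0.00412), while Jun fell by 0.81 ± 0.22 (adjusted p = 0.00409). At 4 h 1 rose and 2 fell, with a median of -0.02, where 2.87% of all probe sets rose and 7.35% were called. Nfkbia rose by 1.16 ± 0.15 (adjusted p = 1.52e-07), Jun fell by 0.72 ± 0.22 (adjusted p = 0.0301) and Atf2, a partner of Jun, fell by 0.30 ± 0.09 (adjusted p = 0.021).

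The leukocyte side of the bond was read from the integrin and selectin ligand lists, and no difference from the members was tested. None of the 8 measured integrin genes was called by limma at any time after HCN (unadjusted p under 0.05 for 0, 0, 2 and 2 of them at 1, 2, 4 and 24 h), with list medians of -0.17 at 2 h and -0.0036 at 4 h. Itga4, a partner of Vcam1, differed by -0.31 ± 0.21 (SE, limma adjusted p = 0.289) at 2 h and -0.49 ± 0.21 (adjusted p = 0.152) at 4 h. Of 8 measured selectin ligands and enzymes that build them, 2 fell and 0 rose at 2 h, where 25.3% of all probe sets were called, with a median of -0.02. These were St3gal4, a sialyltransferase, by 0.99 ± 0.16 (adjusted p = 8.89e-06), and Selplg, the leukocyte ligand of P-selectin, by 0.65 ± 0.23 (adjusted p = 0.0321). Selplg was uneven among the air hearts (5.46 ± 0.91) and even among the HCN hearts (4.81 ± 0.14, SD). The mean of lymphocyte markers was 3.43 to 5.22 in those air hearts and 3.26 to 3.99 in the HCN hearts, and its part was not tested. At 4 h 0 of the 8 were called by limma and 0 had an unadjusted p under 0.05, with a median of 0.02, and St3gal4 differed by -0.19 ± 0.16.

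Of 10 other endothelial adhesion and junction genes measured, 0 rose and 2 fell at 2 h after HCN, 1 fell at 4 h and 5 fell at 24 h, with medians of -0.19, -0.16 and -0.30. Over all probe sets 8.79% rose and 25.3% were called at 2 h, 2.87% rose and 7.35% were called at 4 h, and 14.3% were called at 24 h. A difference between these genes and the members was not tested. Pecam1, an endothelial junction protein, fell by 1.20 ± 0.24 (SE, limma adjusted p = 0.00013) at 2 h and by 0.94 ± 0.24 (adjusted p = 0.00376) at 24 h, and differed by 0.39 ± 0.24 (adjusted p = 0.380) at 4 h. At 2 h Pecam1 was uneven among the HCN hearts (6.90 ± 1.05) and even among the air hearts (8.10 ± 0.16, SD). The actin ratio was also raised in HCN hearts at 2 h, as given above, and at 24 h, where it was 0.98 ± 0.25 in HCN hearts and 0.39 ± 0.04 in air hearts (SD, n = 4 each). F11r, another junction protein, fell by 0.27 ± 0.10 (adjusted p = 0.0453) at 2 h and 0.33 ± 0.10 (adjusted p = 0.0315) at 4 h. Of 5 measured genes of the Weibel-Palade body, the store of P-selectin, 2 rose and 1 fell at 2 h, with a median of 0.28. Edn1, the endothelin precursor, rose by 0.74 ± 0.17 (adjusted p = 0.00102), Plat, tissue plasminogen activator, by 0.77 ± 0.21 (adjusted p = 0.0057), and Rab27a fell by 0.46 ± 0.14 (adjusted p = 0.0139). At 4 h Plat alone rose, by 0.70 ± 0.21 (adjusted p = 0.0323), and the median was 0.09. Of the shedding enzymes, Adam17 and Adam10 were not called, and their inhibitor Timp3 rose by 0.96 ± 0.20 (adjusted p = 0.000323) at 2 h and 0.64 ± 0.20 (adjusted p = 0.042) at 4 h.

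**Figure D3:**
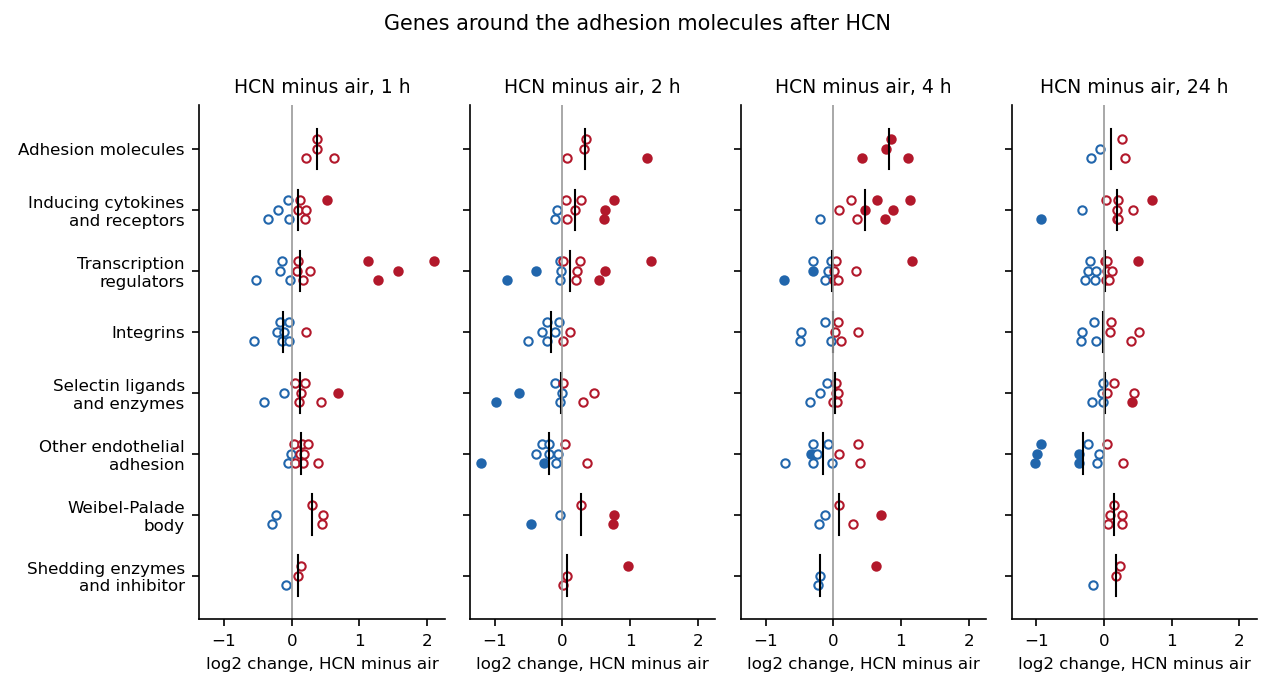
Each circle is the log2 change of 1 measured gene, HCN minus air, by list (rows) and hours after exposure (columns), red where above 0 and blue where below, filled where limma gave an adjusted p below 0.05. Black bars are list medians. At 4 h the 4 adhesion molecules and 5 of 9 cytokines and receptors were filled to the right of 0, and no integrin or selectin ligand gene was filled.

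After KCN the same lists were read at 1, 2 and 4 h. At 1 h 2 of 12 transcription regulators, 1 of 8 integrin genes, 1 of 10 other endothelial adhesion genes and 1 of 5 Weibel-Palade genes rose, 0 fell, and no gene was called in the other 3 lists, where 1 gene had an unadjusted p under 0.05. At 2 h 1 of 9 cytokines and receptors rose, 1 of 12 transcription regulators rose and 1 fell, and 2 of 10 other endothelial adhesion genes rose. In the same hearts 1 of 8 selectin ligand genes, 1 of 3 shedding genes and 0 of the integrin and Weibel-Palade genes rose. At 4 h 1 of 9 cytokines and receptors rose, 1 of 8 integrin genes fell, and 0 genes were called in the other 5 lists. At 8 h no gene was called in any list. At 24 h 1 of 9 cytokines and receptors, 1 of 12 transcription regulators, 1 of 10 other endothelial adhesion genes and 1 of 5 Weibel-Palade genes rose. In the same hearts 1 of 8 selectin ligand genes fell, and no integrin or shedding gene was called. F2r was the receptor that rose at 2 and 4 h, by 0.54 ± 0.16 (SE, limma adjusted p = 0.0237) at 2 h and by 0.63 ± 0.17 (adjusted p = 0.0303) at 4 h. Nfkbia rose by 0.90 ± 0.15 (adjusted p = 3.64e-05) at 1 h and 0.99 ± 0.16 (adjusted p = 3.69e-05) at 2 h.

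Markers of the cells that carry or meet these molecules are given beside the rise at 4 h. Endothelial markers had 1 of 10 higher and 2 lower, a median change of -0.18, and a mean over the list of 7.77 to 8.12 in HCN hearts and 7.93 to 8.10 in air hearts, ranges that overlapped. Flt1 was the higher one (0.54 ± 0.17 (SE), limma adjusted p = 0.0322), and Tek (-0.49 ± 0.14, adjusted p = 0.0233) and Emcn (-0.45 ± 0.13, adjusted p = 0.0186) were the lower ones. With the level of the endothelial markers as a covariate, limma gave rises of 1.16 for Selp (adjusted p = 1.8e-05), 0.88 for Icam1 (adjusted p = 0.00341) and 0.79 for Vcam1 (adjusted p = 0.000347). Platelet and megakaryocyte markers, which share Selp with endothelium, had 0 of 8 higher and 1 lower, with list means of 4.90 to 5.59 in HCN hearts and 4.89 to 6.42 in air hearts. With their level as a covariate Selp rose by 1.10 (adjusted p = 0.000115).

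Some markers of neutrophils were also higher at 4 h. Their list mean was 4.46 to 4.81 in HCN hearts and 3.69 to 3.98 in air hearts, without overlap. Air hearts of other times reached as high as 5.51 at 1 h and 5.12 at 2 h, above every HCN 4 h heart. At 4 h 3 of 8 markers were higher and 0 lower, while 2.87% of all probe sets rose and 7.35% were called. S100a8 rose by 2.61 ± 0.53 (SE, limma adjusted p = 0.000643), S100a9 by 2.62 ± 0.52 (adjusted p = 0.000484) and Mmp8 by 0.81 ± 0.15 (adjusted p = 0.00025), while the receptors Csf3r and Cxcr2 differed by 0.16 ± 0.15 and 0.31 ± 0.14. Mmp8 passed the filter only through these HCN hearts (mean 3.48, against 2.66 in air hearts), so it adds no support to the count. In air hearts 3 of the 8 had means below the filter, and in HCN hearts 0. Markers of monocytes and macrophages had 2 of 10 higher and 0 lower, with list means of 7.48 to 7.65 in HCN hearts and 7.15 to 7.48 in air hearts. Cd14, which is also induced by inflammatory signals, rose by 1.26 ± 0.24 (adjusted p = 0.000301). The part of these cells in the rise of the members was not tested.

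Lymphocyte markers had 0 of 8 called by limma at 4 h (3 at an unadjusted p under 0.05), with list means of 3.17 to 3.59 in HCN hearts and 3.43 to 4.39 in air hearts. Airway epithelium markers had 0 of 6 called (1 at an unadjusted p under 0.05) but a median change of -1.80 and list means of 2.98 to 8.66 in HCN hearts and 5.51 to 9.39 in air hearts. With the airway transcripts as a covariate, limma gave rises of 1.09 for Selp (adjusted p = 0.000106), 0.76 for Icam1 (adjusted p = 0.011) and 0.74 for Vcam1 (adjusted p = 0.000854), and for Sele a change of 0.39 that no longer passed (adjusted p = 0.0676). At 2 h, where Icam1 rose, 8.79% of all probe sets rose and 25.3% were called. Neutrophil markers had 3 of 8 higher there, with list means of 4.32 to 5.47 in HCN hearts and 3.90 to 5.12 in air hearts. Endothelial markers had 1 of 10 higher and 4 lower, with list means of 7.46 to 7.77 in HCN hearts and 7.75 to 7.99 in air hearts.

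**Figure D4:**
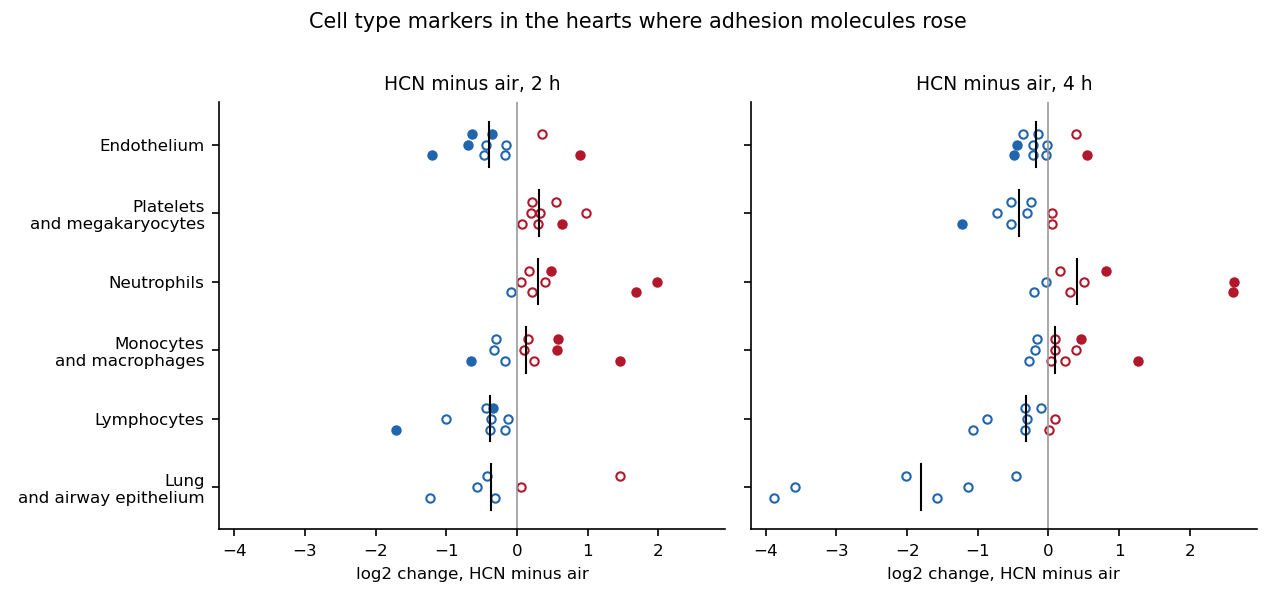
Each circle is the log2 change of 1 marker gene, HCN minus air, by cell type (rows) at 2 h (left) and 4 h (right), red where above 0 and blue where below, filled where limma gave an adjusted p below 0.05. Black bars are list medians. Neutrophil markers had 3 filled circles to the right of 0 at both times. Endothelial markers had 1 filled to the right and 4 to the left at 2 h, and 1 to the right and 2 to the left at 4 h.

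The members were also compared with each other from heart to heart. Each of the 35 cyanide hearts was taken as its signal minus the mean of its control group, so that points share control means and the differences between times. Over the 16 HCN hearts, Pearson's r was 0.74 between Selp and Vcam1, 0.62 between Selp and Sele, 0.52 between Icam1 and Vcam1, and 0.34 between Icam1 and Selp. Over the 19 KCN hearts the same pairs gave -0.12, 0.56, 0.30 and 0.39. These are descriptions that mix effects between times with those between hearts. The mean of Sele passed the filter only in HCN 4 h hearts, so values with Sele rest largely on dim signals.

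The genes whose pattern over the 35 cyanide hearts was most like each member were ranked by Pearson's r among 12435 genes. For Icam1 they were Sema7a (r = 0.81), a membrane semaphorin, C5ar1 (0.76), the receptor for a complement fragment, Sphk1 (0.76), Socs3 (0.76), a feedback inhibitor of cytokine signalling, and Coq2 (0.74). For Vcam1 they were Medag (0.71), Gcnt2 (0.69), Snhg5 (0.68), Mir22hg (0.68) and Ptx3 (0.66), a secreted pattern recognition protein. For Selp they were Ccl7 (0.71), Sele (0.64), Ccl2 (0.64), Socs3 (0.61) and Bcr (0.60), of which Ccl2 and Ccl7 are chemokines that draw monocytes. For Sele they were 1810055G02Rik (0.67), Selp (0.64), Socs3 (0.60), Ccl2 (0.60) and Ank (0.59). Socs3 was thus among the 5 nearest genes of 3 of the 4 members, and the selectins were each among the other's nearest 5. Sele joined the ranked genes only through its mean in HCN 4 h hearts and lay below the filter in all other groups. Its part in these counts is therefore no support.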

How the data were processed

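Total RNA of whole hearts (100 ng per sample) was labelled by in vitro transcription and hybridised to Affymetrix mouse arrays, per the labels. The deposited value matrix holds log2 signals per probe set, summarised and normalized by the authors. The log2 scale was read from the values (1.83 to 13.94), and the submitters' processing notes name MAS5 without a version or role. How they were normalized is not stated there. The injection and inhalation arms differ in their distributions (median 95th percentiles of 9.24 and 9.52), so arms were compared only through their own controls. Arrays correlated at 0.968 to 0.995. No scan batch could be tested, since none is named in the labels.

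The 104 AFFX controls were left out. A probe set entered the tests if its highest group mean passed 3.23, the median over all groups and probe sets, and 26773 did. With R 4.3.3 and limma 3.58.1, lmFit gave each of the 18 groups its mean over all 69 arrays. eBayes used an intensity trend and 51 residual degrees of freedom. Tests were two-sided, with Benjamini-Hochberg adjustment over all probe sets tested within a contrast and a threshold of 0.05. Each cyanide group was contrasted with its own control, and averages over times, differences between routes and F tests over time followed. Where a gene had several probe sets, the brightest stood for it. Genes of the related lists were named when among the 3 lowest p of a list at HCN 2 h or 4 h, and nearest genes by the 5 highest r; Il4ra, Ifngr1, Klf2, Klf4, the KCN values of F2r and Nfkbia and the marker genes were named after their values were seen. The members and lists were chosen with earlier results of these data known. The fit was tested on simulated data. Alternatives were quantile normalization, median centring, no filter and a stricter one, no trend, the replicate number as a block, a fit per route, fits restricted to the groups compared, joint adjustment over 9 comparisons, covariates, the mean of a gene's probe sets and leaving out each array in turn; leaving out 2 HCN 2 h hearts was added after seeing the data.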

Additional observations from a re-analysis of the deposited data

Results flagged for a closer look

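The HCN effect on Selp at 4 h exceeded the KCN effect by 1.15 on the log2 scale (limma adjusted p = 0.0266), which made it the only member whose effect differed between the routes at a shared time by a test of the difference itself. The HCN change was 1.10 and the KCN change -0.05. Agent, dose and route differ together in this contrast. The call was lost without any 1 of 6 of the 14 arrays compared. It was also lost with the airway covariate (limma adjusted p = 0.0737), the platelet covariate (0.0512) and the mean of probe sets (0.0576). The second probe set of Selp gave 0.44 (adjusted p = 0.469).

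In saline 1 h hearts, Selp stood at 3.64 in replicate 1, while the other 3 hearts lay between 3.46 and 3.49, a gap beyond Dixon's critical value for 4 samples. Of 75 combinations of a probe set and a group of 4 examined, this was the only one, and chance gives about 1 in 20.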

How the results depend on the processing

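The rises of Icam1 at HCN 2 h and 4 h and of Vcam1 and Selp at HCN 4 h passed under every alternative run in which they were tested and without any 1 of the 8 arrays compared. Sele at HCN 4 h passed in 9 of 13 alternatives and 3 of 8 leave-outs; its adjusted p was 0.0502 after quantile normalization, 0.0545 with no filter, 0.0676 with airway transcripts as a covariate and 0.0863 in a fit of only the groups compared. The stricter filter (6.03, 13471 probe sets) left Sele and Selp untested, and so 2 members called at HCN 4 h and 0 for the KCN average and for HCN minus KCN 4 h. Icam1 passed this filter only through its means in HCN 4 h (6.88) and HCN 2 h hearts (6.84), and Vcam1 only through HCN 4 h hearts (6.18). Their calls under it are therefore no separate support. No called value changed direction.

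The replicate block put 1 member past the threshold at HCN 1 h (Selp) and 1 for saline over time (Icam1) and changed no other count of members by over 1.5 times. Replicate numbers did not pair the samples: over 34 pairs the correlation of deviations was -0.14 to 0.32, and in 0 of 9 comparisons was every pair above 0.1. Selp also passed at HCN 1 h (1 member) with quantile normalization, fits restricted to the groups compared, joint adjustment over 9 comparisons and the actin covariate. Quantile normalization gave 2 members at HCN 2 h (Vcam1 joining) and 1 for HCN minus KCN 2 h (Icam1). The endothelial covariate gave 1 member at KCN 2 h. The KCN average fell to 0 members with quantile normalization, median centring, no filter, the mean of probe sets and the actin, airway and endothelial covariates, and HCN minus KCN 4 h to 0 with the airway and platelet covariates and the mean of probe sets. Without the 2 HCN 2 h hearts of highest actin ratio, 1 member passed for the HCN effect over time. Leaving out each array in turn gave 0 to 1 members for KCN 2 h, the KCN average, HCN minus KCN 2 h and 4 h and saline over time, and 1 to 3 for the HCN effect over time. The cause was not tested.

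Uncalled changes, the largest of them 0.38 in size in the main fit, turned sign in 70 of 2720 values. The 2720 include F test values, which have no sign to turn. With median centring, Sele read 0.0081 at KCN 1 h and -0.0084 at KCN 8 h, and with quantile normalization Sele read 0.0046 at KCN 1 h and Icam1 -0.0099 at KCN 4 h. With the airway covariate, values were 0.061 for Sele at KCN 1 h, 0.033 for Icam1 at KCN 8 h, 0.023 for Vcam1 at KCN 24 h, and -0.089 and -0.064 for Icam1 in HCN minus KCN at 1 h and 24 h. With the platelet covariate they were -0.033 for Vcam1 at KCN 2 h, -0.013 for Sele at KCN 8 h and -0.11 for the second probe set of Selp in HCN minus KCN 2 h. With the endothelial covariate they were -0.015 for Sele at KCN 8 h, -0.0064 for the second probe set of Selp at KCN 24 h and -0.0032 for the KCN average of Sele. With the actin covariate they were -0.0016 for Sele at KCN 8 h, 0.042 for Sele at HCN 24 h, -0.028 for its KCN average and 0.069 for its HCN minus KCN 2 h, -0.017 for Selp in HCN minus KCN 24 h, and for the second probe set of Selp -0.12 at KCN 24 h, 0.053 at HCN 24 h and 0.17 in HCN minus KCN 24 h. With the mean of probe sets, Selp read 0.13 at KCN 4 h, 0.0011 in HCN minus KCN 2 h and -0.13 in HCN minus KCN 24 h. Leave-outs spanned 0 for Sele at KCN 1 h (-0.090 to 0.13), KCN 8 h (-0.13 to 0.089), HCN 24 h (-0.14 to 0.00039), the KCN average (-0.021 to 0.034) and HCN minus KCN 2 h (-0.17 to 0.061), for Icam1 at KCN 4 h (-0.14 to 0.24), KCN 8 h (-0.13 to 0.057) and HCN minus KCN 24 h (-0.11 to 0.13), for Vcam1 at KCN 2 h (-0.030 to 0.14) and KCN 24 h (-0.071 to 0.018), for Selp at KCN 4 h (-0.13 to 0.049) and for its second probe set at KCN 1 h (-0.17 to 0.046). Groups of 3 or 4 arrays and the dim signal of Sele, near the filter, limit the precision.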
